A study of Homo sapiens with 6 samples.

Results

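The integrin and laminin subunit genes were followed in OVCAR8 cells, a cell line of a human ovarian carcinoma, after treatment with relaxin-2 (RLN2) and without it. RLN2 is a circulating hormone related to insulin, known for remodelling the connective tissue of the reproductive tract. They were picked by symbol from the authors' merged read count table, as every name that begins with ITGA or ITGB and every LAMA, LAMB or LAMC chain. This gave 38 of 58037 gene IDs, after 3 of 41 lines that repeat an ID were dropped. There were 26 integrin subunits (18 alpha and 8 beta) and 12 laminin chains (5 alpha, 4 beta and 3 gamma). The binding proteins ITGB1BP1, ITGB1BP2 and ITGB3BP, the integrin-like gene ITGBL1 and the antisense genes ITGA9-AS1 and ITGB2-AS1 were left out. The treated group was 3 libraries, numbered 1 to 3, from cells given 50 ng/mL of recombinant human RLN2 for 8 hours. The other group was 3 libraries, numbered 2 to 4, from untreated cells. All cells had been plated in medium with serum and then kept without serum for 16 hours, and 1 cell line was the only source. The labels name triplicates but do not say whether separate cultures were used, so the spread behind each p-value is that between these libraries and may be technical.

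Integrins are receptors that join the cytoskeleton to the extracellular matrix. Each is a pair of 1 alpha and 1 beta subunit, and the pair sets which ligand is bound: fibronectin and other proteins with the tripeptide RGD, laminins, collagens or counter-receptors on other cells. Laminins are secreted trimers of 1 alpha, 1 beta and 1 gamma chain that assemble into sheets in basement membranes. Ovarian carcinoma cells spread over the mesothelium of the abdominal cavity, and integrins are among the receptors by which they are known to hold on to its matrix.

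The 6 libraries held 11939148 to 22426768 reads assigned to genes, and the 38 subunits took 33176 to 64626 of them, 0.268% to 0.295% of gene reads. Levels are given as CPM (reads per 1000000 gene reads) after scaling by edgeR's trimmed mean of M-values (TMM), and levels of different genes are set against each other as RPKM (CPM per 1000 bases of merged exon). Of 14 markers of ovarian carcinoma and epithelium, 7 reached a mean of 1 CPM, among them KRT8 and KRT18, keratins of simple epithelia, and PAX8, a transcription factor of the Müllerian lineage. MUC16, the gene of the CA125 antigen, was close to 0. The summed CPM of the 12 leukocyte markers was 1.89 to 2.27 in RLN2 libraries and 2.02 to 2.94 in untreated libraries, with CD3E, CD2, MS4A1 and SPI1 at 0 reads. LCP1 was the highest of the 12, at 1.01 CPM on average. The libraries differed along the GC content of transcripts. The Pearson correlation, across 16673 genes, between a library's deviation from the mean of all 6 and GC content was 0.12, 0.57 and 0.57 in RLN2 replicates 1 to 3, and -0.77, -0.16 and 0.19 in untreated replicates 2 to 4. Untreated replicate 2 stands apart in this respect. RLN2 replicate 2 stands apart in others: it had 27.0% multimapping reads, against 5.31% to 6.19% in the other 5 libraries, and 55840.3 CPM of mitochondrial transcripts, against 8458 to 14166 CPM in the others. Most of the log2 fold changes below that moved by over 1.5 times without untreated replicate 2, and several that did so without RLN2 replicate 2, are also given without it.

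The subunits themselves span a wide range of GC content, and part of the coding sequence of 5 of them is printed because the fold changes below follow this property. Shown are the 2 richest and the 2 poorest in GC among subunits with a mean of at least 10 CPM, and ITGB1, the most abundant. Each is a stretch of 90 bases inside 1 coding exon whose GC share lies nearest to that of its gene, read 5′ to 3′ on the coding strand from GRCh38 with GENCODE 29 exons, with G and C in capitals.
LAMA5: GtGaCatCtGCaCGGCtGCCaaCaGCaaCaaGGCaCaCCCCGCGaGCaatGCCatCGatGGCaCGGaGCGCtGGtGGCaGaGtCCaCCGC
LAMC3: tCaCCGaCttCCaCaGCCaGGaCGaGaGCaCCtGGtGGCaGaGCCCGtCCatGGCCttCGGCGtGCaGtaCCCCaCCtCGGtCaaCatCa
ITGB1: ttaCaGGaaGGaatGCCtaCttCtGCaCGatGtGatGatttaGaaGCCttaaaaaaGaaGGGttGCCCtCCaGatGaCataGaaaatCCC
ITGA1: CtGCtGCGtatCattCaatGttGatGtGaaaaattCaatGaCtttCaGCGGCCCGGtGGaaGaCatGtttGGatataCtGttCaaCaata
ITGAV: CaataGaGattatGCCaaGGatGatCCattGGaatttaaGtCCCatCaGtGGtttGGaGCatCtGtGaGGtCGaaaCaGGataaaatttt
The LAMA5 stretch lies in exon 2 of 80 (chr20:62362453-62362542, minus strand) and has G or C at 58 of 90 positions. The LAMC3 stretch lies in exon 1 of 28 (chr9:131009486-131009575, plus strand) and has 57. The ITGB1 stretch lies in exon 3 of 16 (chr10:32929949-32930038, minus strand) and has 38. The ITGA1 stretch, in exon 2 of 29 (chr5:52849375-52849464, plus strand), has 36, and the ITGAV stretch, in exon 3 of 30 (chr2:186622340-186622429, plus strand), has 35. Over all transcripts of a gene, mean GC content was 64.6% for LAMA5, 62.9% for LAMC3, 42.2% for ITGB1, 40.3% for ITGA1 and 38.9% for ITGAV.

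OVCAR8 cells transcribed mostly 1 beta integrin. ITGB1 (chromosome 10, 32900319 to 33005792, minus strand), the beta subunit shared by most receptors for fibronectin, laminin and collagen, had 107 RPKM on average over the 6 libraries (97.3 to 123), 14.2 times the level of ITGB5. It made up 84.9% to 86.8% of the summed beta subunit RPKM in RLN2 libraries and 87.2% to 90.9% in untreated libraries. ITGB5 averaged 7.56 RPKM and ITGB8 5.27 RPKM. Both pair with ITGAV, and their ranges over the libraries overlapped. ITGB4, which pairs with ITGA6 and anchors hemidesmosomes, averaged 1.91 RPKM. Its range overlapped that of ITGB2, the beta subunit of leukocyte integrins, at 0.682 RPKM, but ITGB4 was the higher within each library. ITGB3 and ITGB6 averaged 0.118 RPKM each.

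Among alpha subunits ITGAV (chromosome 2, 186590065 to 186680901, plus strand), the partner of ITGB1, ITGB5 and ITGB8 in RGD-binding receptors, was highest at 44.0 RPKM (39.5 to 51.9), and no library overlapped the next subunit. ITGA6 and ITGA3, which pair with ITGB1 as laminin receptors, followed at 32.2 and 27.3 RPKM and overlapped each other. ITGA5, the alpha subunit of the main fibronectin receptor, averaged 10.7 RPKM. ITGAE and ITGA4 averaged 4.07 and 3.74 RPKM and overlapped. The collagen receptor subunits ITGA1 and ITGA2 averaged 1.31 and 1.03 RPKM. ITGA7, ITGA2B and ITGAX, at 0.532, 0.515 and 0.375 RPKM, overlapped each other in turn, and ITGAM averaged 0.117 RPKM and ITGA9 less.

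Each position of the laminin trimer was also led by 1 chain. LAMA1 (chromosome 18, 6941744 to 7117814, minus strand), the alpha chain of early embryonic basement membranes, averaged 13.1 RPKM, 13.7 times the level of LAMA5, the broadly expressed alpha chain of adult epithelia. LAMA3 and LAMA2 averaged 0.287 and 0.208 RPKM. LAMB1 averaged 24.0 RPKM, LAMB2 13.5 RPKM and LAMB3 11.2 RPKM. The ranges of LAMB2 and LAMB3 overlapped, but LAMB2 was the higher of the pair within each library. LAMC1 (chromosome 1, 183023460 to 183145592, plus strand), the gamma chain of most laminins, averaged 35.4 RPKM and LAMC3 1.80 RPKM. These are RNA levels, and the assembled trimers were not measured.

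**Figure D1:**
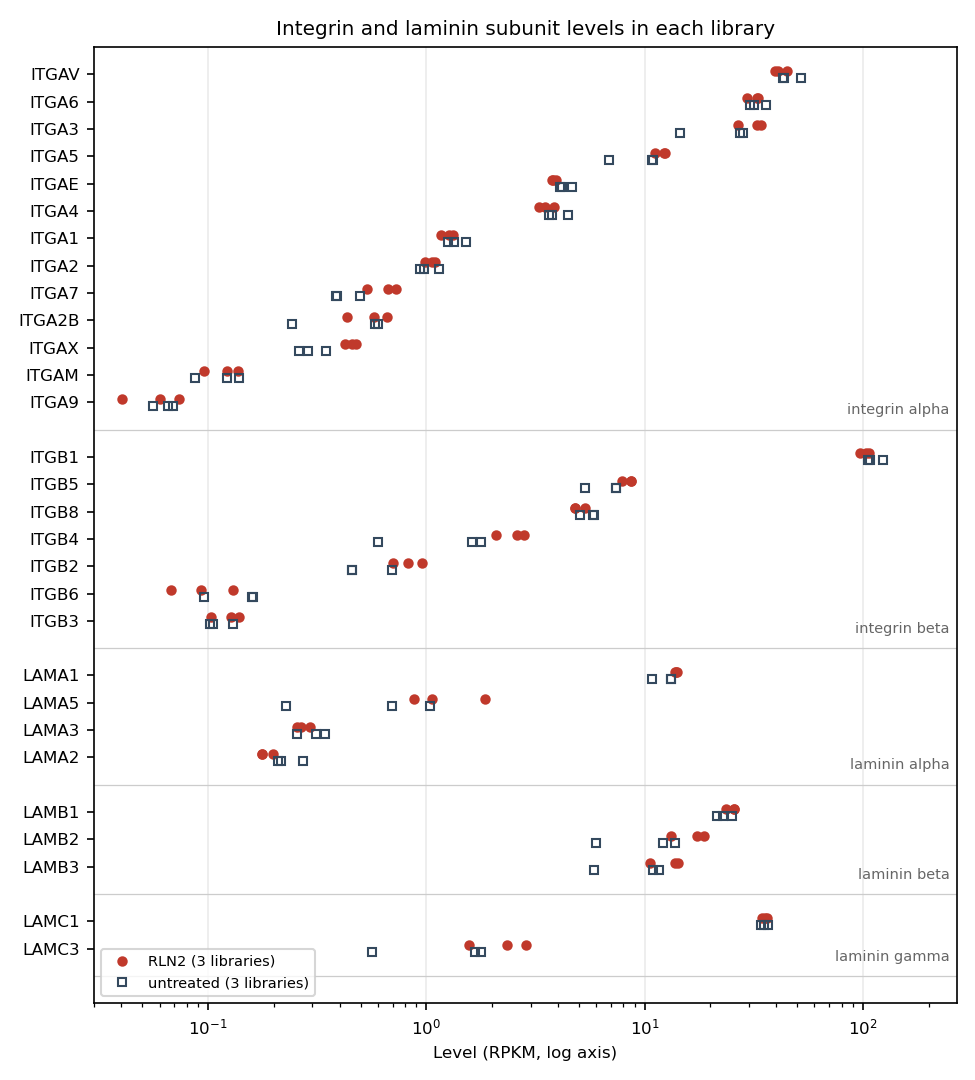
Level of 29 of the 30 tested subunits in RPKM (x axis, log scale), by class and in falling order of the mean; red dots are the 3 RLN2 libraries and open squares the 3 untreated libraries. ITGB1 leads all subunits at 107 RPKM on average, and LAMA1, LAMB1 and LAMC1 lead the laminin positions.

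Of the 38 subunits, 30 had enough reads for the test. The other 8 had few reads: over the 6 libraries together ITGA10 had 37 reads, ITGA11 14, ITGAL and LAMA4 6 each, LAMB4 5, ITGAD 3, ITGB7 2 and ITGA8 1. ITGA10 and ITGA11 are collagen receptor subunits, ITGAL and ITGAD are leukocyte subunits that pair with ITGB2, and ITGB7 pairs with ITGA4 or ITGAE. These 8 were not tested in the main fit, so it gives no result on RLN2 for them. Without a filter on low counts, 0 of the 38 subunits passed an adjusted p under 0.05 by edgeR.

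The main comparison asked whether RLN2 altered the RNA level of any subunit within 8 hours. No subunit passed an adjusted p under 0.05 (edgeR quasi-likelihood test with Benjamini-Hochberg adjustment over all 16740 tested genes), and the smallest adjusted p of a subunit was 0.408. The same share, 0%, was called among all genes. Of the 30 tested subunits, 18 had a higher and 12 a lower fitted level in RLN2 libraries, and the median log2 fold change was 0.09, against -0.01 over all tested genes. At an unadjusted p under 0.05 there were 5 subunits, all of them higher, or 16.7% of the 30, against 10.8% of all genes in either direction and 6.3% of all genes on the higher side; 0 were lower, against 4.52% of all genes. DESeq2 and limma-voom also called 0 subunits, with 8 and 6 at an unadjusted p under 0.05, against 1677 and 2058 of all 16740 genes. By edgeR that number was 2 without RLN2 replicate 2, 1 without RLN2 replicate 3, 8 without untreated replicate 4 and 0 with 1 surrogate variable estimated from all genes. Over all genes it moved as well, from 1811 of 16740 in the main fit. It was 492 of 17370, 612 of 16802 and 3602 of 17315 without these libraries in turn, and 1441 of 16740 with the surrogate variable. The groups did not overlap in 9 subunits (7 higher and 2 lower after RLN2), 30% of those tested, against 21.4% of all genes. Both shares vary with GC content. Of all genes with at least 55% GC, 18.7% had an unadjusted p under 0.05 by edgeR and 27.5% did not overlap. For the 12 subunits in that class the shares were 33.3% and 41.7%. Below 45% GC they were 10.9% and 20.8% of all genes, and 0% of the 8 subunits for both. Between these limits they were 5.15% and 17.6% of all genes, and 10% and 40% of the 10 subunits. In bulk RNA, fewer cells with a transcript and less of it per cell cannot be told apart.

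**Figure D2:**
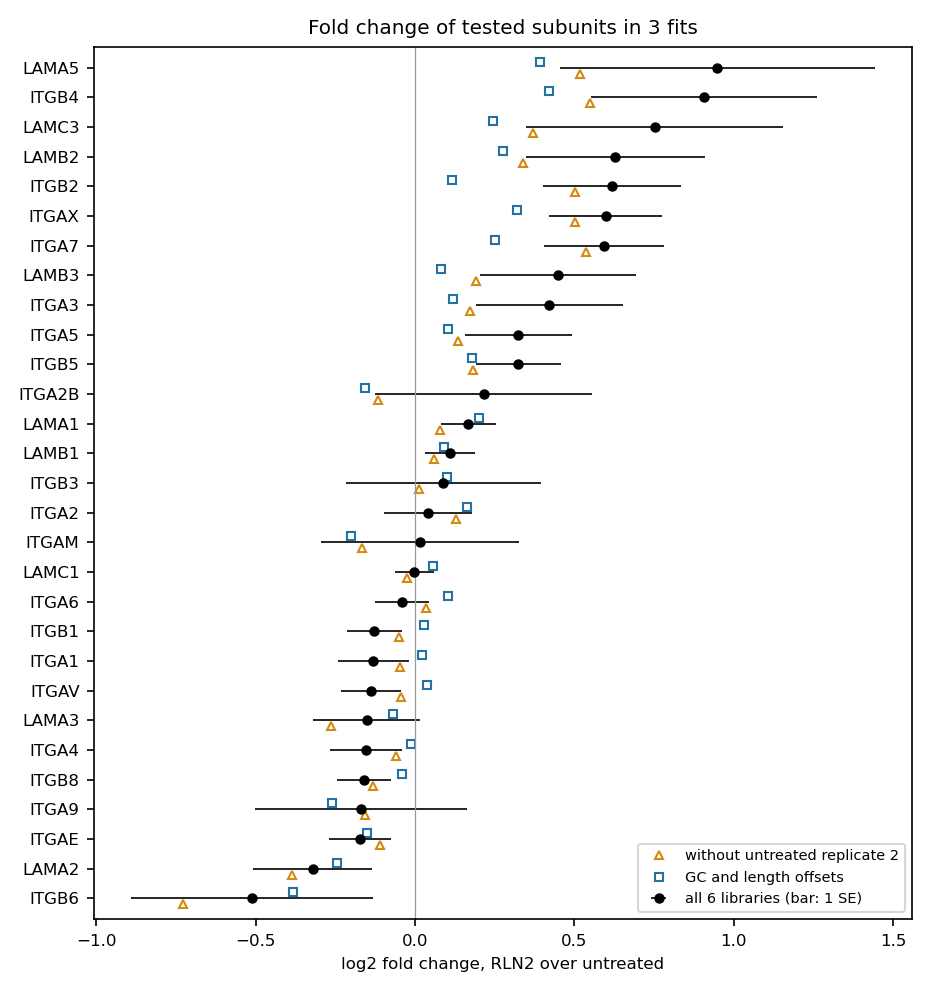
log2 fold change, RLN2 over untreated, of 29 of the 30 tested subunits in the fit of all 6 libraries (black dots, bars of 1 SE), without untreated replicate 2 (open triangles) and with offsets for GC content and length (open squares). LAMA5, ITGB4 and LAMC3 lie furthest to the right in the fit of all libraries and move toward 0 in both other fits.

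ITGAV and ITGA5, the main alpha subunits for RGD ligands here, lay on opposite sides of 0. ITGAV had 371, 324 and 337 CPM in RLN2 replicates 1 to 3, against 426, 358 and 352 CPM in untreated replicates 2 to 4. The 2 groups overlapped, and the highest value was that of untreated replicate 2. The log2 fold change was -0.14 ± 0.094 (SE; adjusted p = 0.451 by edgeR's quasi-likelihood test), and it was -0.05 without untreated replicate 2. ITGA5 (chromosome 12, 54395261 to 54419460, minus strand) had 84.2, 92.5 and 94.1 CPM in RLN2 libraries, against 52.0, 81.7 and 82.7 CPM in untreated libraries. Every RLN2 value lay above every untreated one, by a narrow margin outside untreated replicate 2. Its log2 fold change was 0.32 ± 0.17 (adjusted p = 0.408 by edgeR) and 0.13 without that library.

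ITGA3, ITGA6 and ITGA7 are the laminin-binding alpha subunits among the tested genes. ITGA6 had 214, 192 and 216 CPM in RLN2 libraries, against 234, 207 and 199 CPM in untreated libraries. The values were interleaved, with a log2 fold change of -0.04 ± 0.084 that was 0.03 without untreated replicate 2 and 0.01 without RLN2 replicate 2. ITGA3 (chromosome 17, 50055968 to 50090481, plus strand) had 262, 335 and 321 CPM in RLN2 libraries, against 143, 276 and 267 CPM in untreated libraries. The lowest RLN2 value fell between the untreated ones, and untreated replicate 2 lay far below the other 5 libraries. The log2 fold change of ITGA3 was 0.42 ± 0.23, and 0.17 without untreated replicate 2. ITGA7, a laminin receptor subunit of muscle, had 3.39, 4.62 and 4.23 CPM in RLN2 libraries, against 2.48, 2.46 and 3.17 CPM in untreated libraries. Its groups did not overlap, its log2 fold change was 0.59 ± 0.19 (edgeR unadjusted p = 0.0141, adjusted p = 0.408), and it was 0.54 without untreated replicate 2. Reads on the strand opposite to ITGA7 were also more frequent in RLN2 libraries, at 1.09 to 1.83 CPM against 0.878 to 0.980 CPM in untreated libraries; their part in the ITGA7 difference was not tested.

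The collagen receptor subunits ITGA1 and ITGA2 lie 30.1 kb apart on chromosome 5. ITGA1 had 24.5, 21.6 and 23.6 CPM in RLN2 libraries, against 28.1, 23.4 and 24.9 CPM in untreated libraries, a log2 fold change of -0.13 ± 0.11. It was -0.05 without untreated replicate 2, -0.08 without RLN2 replicate 2 and 0.02 with offsets for GC content and length. ITGA2 had a log2 fold change of 0.04 ± 0.14, which was 0.13 without untreated replicate 2 and -0.01 without untreated replicate 4. Both pairs of groups overlapped. Of the 18566 merged exon bases of ITGA1, 1046 also belong to a gene on the same strand, PELO or AC022133.1, so reads there were not counted for ITGA1.

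Most of the remaining alpha subunits are known mainly from blood cells. ITGAE, the partner of ITGB7 on lymphocytes of epithelia, had 25.3, 24.9 and 26.2 CPM in RLN2 libraries, against 31.1, 27.1 and 28.0 CPM in untreated libraries. All RLN2 values were below all untreated ones, and the log2 fold change was -0.17 ± 0.097 (edgeR adjusted p = 0.413), or -0.11 without untreated replicate 2. ITGA4, which binds fibronectin and VCAM1 with ITGB1, had 30.2, 26.0 and 27.6 CPM in RLN2 libraries, against 35.0, 29.7 and 28.7 CPM in untreated libraries, groups that overlapped. ITGAX (chromosome 16, 31355134 to 31382997, plus strand), a subunit of dendritic cells and macrophages, had 3.00, 3.22 and 3.36 CPM in RLN2 libraries, against 1.85, 2.46 and 2.02 CPM in untreated libraries. The groups were clearly apart, and its unadjusted p was the smallest of the 30 subunits (log2 fold change 0.60 ± 0.18, edgeR unadjusted p = 0.00971, adjusted p = 0.408). It was 0.50 without untreated replicate 2. ITGA2B, the platelet subunit, ITGAM and ITGA9 had log2 fold changes of 0.22 ± 0.34, 0.01 ± 0.31 and -0.17 ± 0.33, each smaller than its own error. Without untreated replicate 2 they were -0.12 for ITGA2B and -0.17 for ITGAM, and with offsets -0.16 and -0.20, so these signs turned. ITGA9 was 0.03 without RLN2 replicate 1 and -0.31 without RLN2 replicate 2.

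Among the beta subunits, ITGB1 had 644, 585 and 620.3 CPM in RLN2 libraries, against 742, 646 and 631 CPM in untreated libraries. The groups overlapped by 1 library of each, and the log2 fold change was -0.13 ± 0.085 (adjusted p = 0.446 by edgeR). It was -0.05 without untreated replicate 2. ITGB8, a partner of ITGAV that binds latent TGF-beta, had 80.6, 72.9 and 72.7 CPM in RLN2 libraries, against 87.7, 88.4 and 76.8 CPM in untreated libraries. These groups overlapped too, with a log2 fold change of -0.16 ± 0.085. ITGB6 and ITGB3 had under 1 CPM in every library, and their log2 fold changes were -0.51 ± 0.38 and 0.09 ± 0.31. That of ITGB3 was 0.01 without untreated replicate 2 and 0.02 without RLN2 replicate 2. ITGB3 shares 2266 of its 4394 exon bases with AC068234.1 on the same strand, and ITGB6 shares 966 of 4687 with AC092153.1, so both are undercounted.

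The other 3 beta subunits had higher values after RLN2 without overlap. ITGB4 (chromosome 17, 75721328 to 75757818, plus strand) had 14.0, 18.9 and 17.6 CPM in RLN2 libraries, against 4.05, 10.9 and 12.1 CPM in untreated libraries. The groups did not overlap, and untreated replicate 2 lay far below both other untreated libraries. The log2 fold change of ITGB4 was 0.91 ± 0.35 (edgeR unadjusted p = 0.0338, adjusted p = 0.408), and 0.55 without untreated replicate 2. ITGB5 had 50.9, 55.9 and 55.7 CPM in RLN2 libraries, against 34.5, 47.7 and 47.7 CPM in untreated libraries, with a log2 fold change of 0.32 ± 0.13 (edgeR unadjusted p = 0.0420) that was 0.18 without untreated replicate 2. ITGB2, at low levels, had 4.79, 5.58 and 6.5 CPM in RLN2 libraries, against 3.11, 4.74 and 3.11 CPM in untreated libraries, with a log2 fold change of 0.62 ± 0.22 (edgeR unadjusted p = 0.0218). The lowest RLN2 value of ITGB2 was only just above the highest untreated one. ITGB2 and ITGAX form 1 receptor in myeloid cells. The summed leukocyte markers given above overlapped between the groups, and PTPRC, which all leukocytes carry, stood near 0.02 CPM.

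Of the 10 laminin chains tested, 7 were higher and 3 lower in RLN2 libraries, with a median log2 fold change of 0.14, and 0 had an unadjusted p under 0.05 by edgeR. The alpha chains diverged. LAMA1 had 218, 223 and 221 CPM in RLN2 libraries, against 172, 209 and 209 CPM in untreated libraries. The RLN2 values were tightly grouped and all above the untreated ones, with a log2 fold change of 0.17 ± 0.087 (edgeR adjusted p = 0.408) that was 0.08 without untreated replicate 2. LAMA2, the alpha chain of muscle and nerve, had 1.84, 1.83 and 2.05 CPM in RLN2 libraries, against 2.16, 2.24 and 2.83 CPM in untreated libraries, all lower after RLN2, with a log2 fold change of -0.32 ± 0.19. LAMA3 had a log2 fold change of -0.15 ± 0.17, and -0.27 without untreated replicate 2.

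LAMA5 (chromosome 20, 62307955 to 62367312, minus strand) had the largest fold change of the 30 subunits and the largest spread of the 10 laminin chains relative to its mean, and is described for that reason, as is LAMC3; both were picked after their values were seen. LAMA5 had 12.5, 26.5 and 15.2 CPM in RLN2 libraries, against 3.24, 9.92 and 14.9 CPM in untreated libraries. Libraries 1 and 3 of the RLN2 group lay close to untreated replicate 4, while RLN2 replicate 2 stood highest and untreated replicate 2 lowest, and the groups overlapped. Its log2 fold change was 0.95 ± 0.49 (edgeR unadjusted p = 0.0917, adjusted p = 0.408). It was 0.52 without untreated replicate 2, 0.58 without RLN2 replicate 2 and 1.44 without untreated replicate 4. Reads on the opposite strand of LAMA5, where ADRM1 and LAMA5-AS1 are annotated, ran at 7.90 to 13.1 CPM in RLN2 libraries and 1.08 to 6.34 CPM in untreated libraries; their part in the LAMA5 difference was not tested.

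The 3 tested beta chains were all higher after RLN2, and all 3 overlapped between groups. LAMB1 had 191, 209 and 208 CPM in RLN2 libraries, against 175, 185 and 204 CPM in untreated libraries, with a log2 fold change of 0.11 ± 0.078 that was 0.06 without untreated replicate 2. LAMB2 (chromosome 3, 49121114 to 49133118, minus strand), which replaces LAMB1 at synapses and in the kidney filter, had 91.1, 129 and 119 CPM in RLN2 libraries, against 41.0, 83.2 and 94.8 CPM in untreated libraries. RLN2 replicate 1 fell just below untreated replicate 4, and untreated replicate 2 was lowest by a wide margin. The log2 fold change of LAMB2 was 0.63 ± 0.28 (edgeR unadjusted p = 0.0555, adjusted p = 0.408), and 0.34 without untreated replicate 2. LAMB3 had 49.8, 66.8 and 64.5 CPM in RLN2 libraries, against 27.4, 54.4 and 51.0 CPM in untreated libraries, with a log2 fold change of 0.45 ± 0.24 that was 0.19 without untreated replicate 2.

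Among gamma chains, LAMC1 was the most even of the 30 tested subunits across the libraries. It had 298, 289 and 304 CPM in RLN2 libraries, against 288, 296 and 309.6 CPM in untreated libraries, with a log2 fold change of -0.0033 ± 0.061 that lay on either side of 0 among the alternatives (0.06 with offsets). LAMC3 had 12.0, 21.7 and 17.7 CPM in RLN2 libraries, against 4.28, 12.6 and 13.5 CPM in untreated libraries. The groups overlapped, and the pattern was that of LAMA5: RLN2 replicate 2 highest and untreated replicate 2 lowest. The log2 fold change of LAMC3 was 0.75 ± 0.40, and 0.37 without untreated replicate 2.

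**Figure D3:**
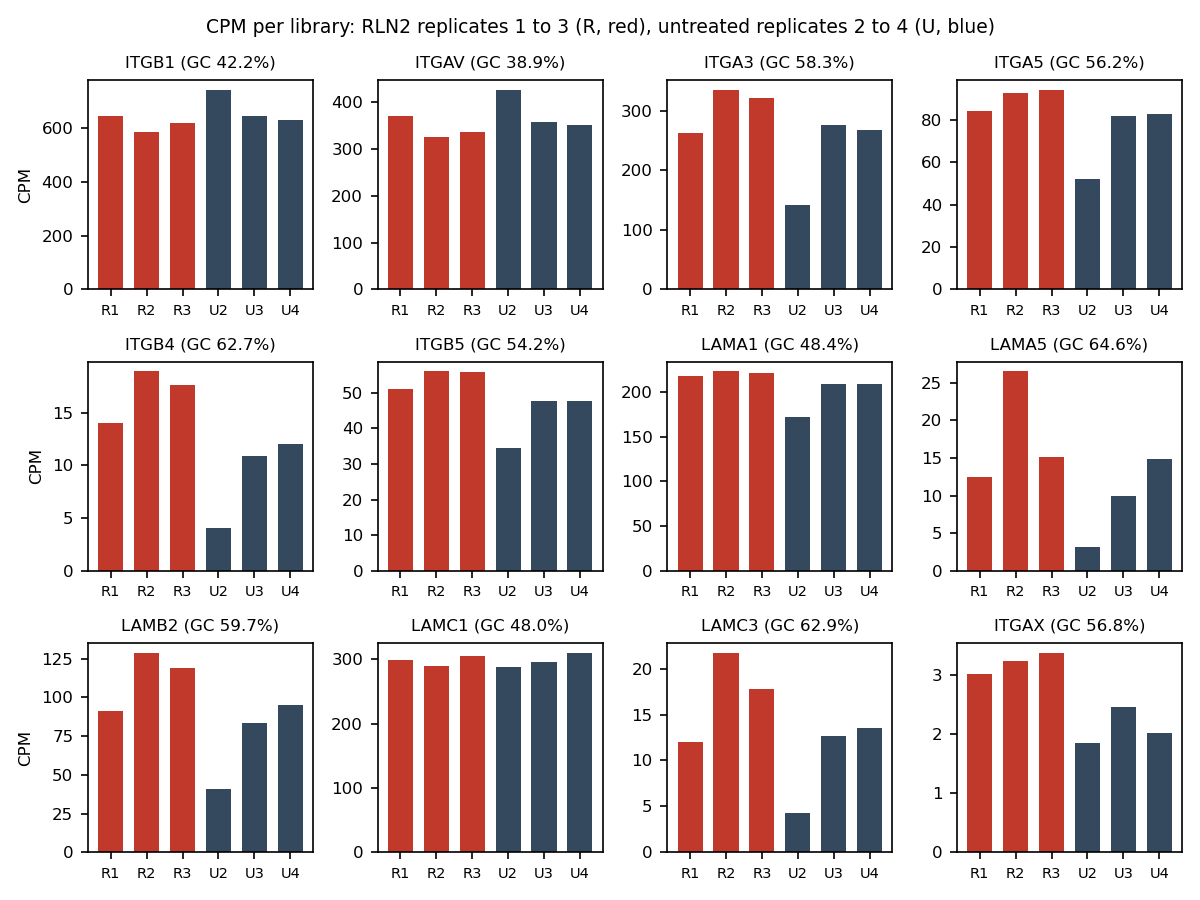
CPM (y axis, from 0) of 12 subunits in each library, RLN2 replicates 1 to 3 (R1 to R3, red bars) and untreated replicates 2 to 4 (U2 to U4, blue bars), with transcript GC content in each title. Untreated replicate 2 is the lowest bar for ITGB4, LAMB2, LAMA5 and LAMC3 and the highest for ITGB1 and ITGAV.

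The direction of a subunit followed its GC content. All 12 tested subunits with a GC content of at least 55% were higher in RLN2 libraries (median log2 fold change 0.60), and 7 of the 8 below 45% were lower (median -0.13). With upper-quartile scaling or library totals alone, 11 of the 12 were higher. The 10 subunits between these limits divided into 5 higher and 5 lower, with a median of 0.04. Across the 30 subunits the Pearson correlation of log2 fold change with GC content was 0.87. Genes are not independent replicates, and all 30 points come from the same 6 libraries. The relation was not limited to the subunits: of all 4623 tested genes with a GC content of at least 55%, 92.9% were higher (median 0.38), and of 5545 below 45%, 11.8% were higher (median -0.15). The correlation over 16673 genes was 0.71.

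Library by library, the subunits rich in GC were low in untreated replicate 2. The median deviation of these 12 subunits from their own mean over the 6 libraries, on the log2 scale, was 0.07, 0.42 and 0.37 in RLN2 replicates 1 to 3, and -0.87, 0.04 and 0.05 in untreated replicates 2 to 4. RLN2 replicate 1 thus lay near untreated replicates 3 and 4, and RLN2 replicates 2 and 3 above them. Untreated replicate 2 was the lowest library for 11 of these 12 subunits, and RLN2 replicate 2 the highest for 8. For the 8 subunits below 45% it was the highest library for 6, and the medians were 0.03, -0.14 and -0.08 in RLN2 libraries and 0.18, -0.00081 and -0.03 in untreated libraries.

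**Figure D4:**
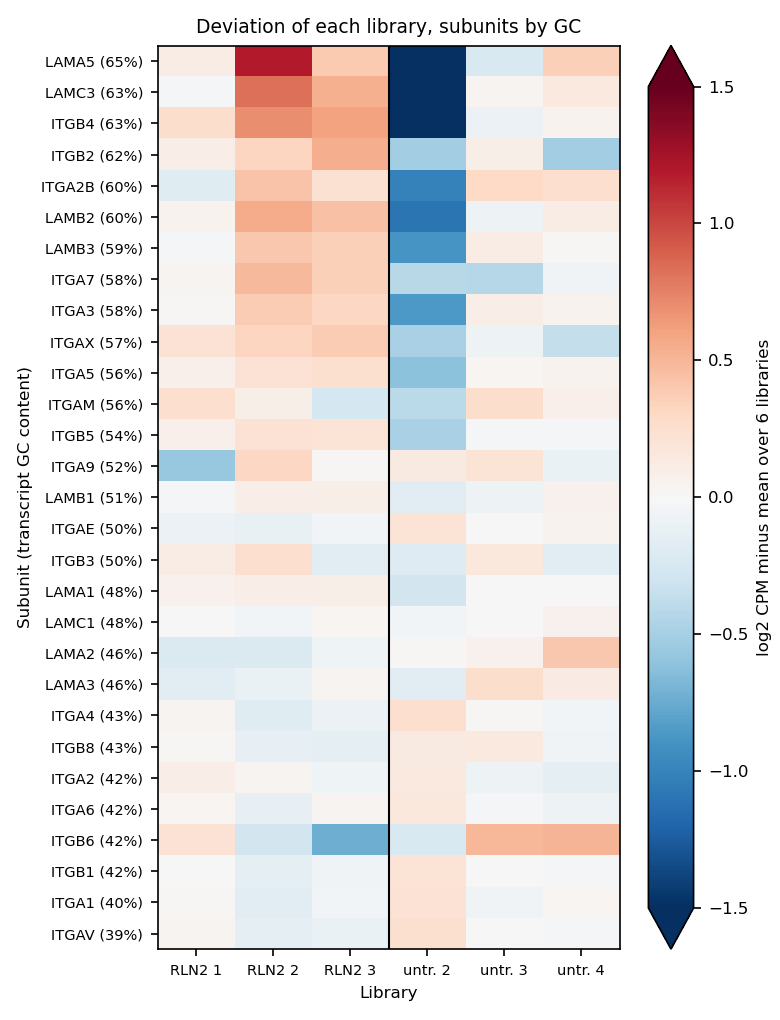
Heat map of log2 CPM minus the mean over 6 libraries for 29 of the 30 tested subunits, ordered from high to low GC content (rows), in 3 RLN2 and 3 untreated libraries (columns); values beyond the colour scale are drawn at its end. The column of untreated replicate 2 is blue at the top, where GC content is high, and pale red at the bottom.

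Without untreated replicate 2 the relation was weaker but still present. Of the 12 subunits rich in GC, 10 were then higher, with a median of 0.36, 6 of the 8 poor in GC were lower, and the correlation was 0.69. Without both libraries numbered 2, 10 of the 12 were higher with a median of 0.19, and the correlation was 0.54. Of the 8 poor in GC, 4 were then lower, with a median of -0.0023. With offsets for the smooth trend of each library on GC content and length, 10 of the 12 were higher with a median of 0.18, and the correlation was 0.48. With these offsets 3 of the 8 poor in GC were lower, with a median of 0.025. In that fit ITGB4 had a log2 fold change of 0.42, LAMA5 0.39, ITGAX 0.32, LAMB2 0.28, ITGA7 0.25, ITGB5 0.18 and ITGB2 0.12, and ITGB1 and ITGAV had 0.03 and 0.04 in place of values below 0. With 1 surrogate variable, 5 of the 12 were higher with a median of -0.04, LAMA5, LAMC3, LAMB3, ITGA3 and ITGA5 among those below 0, and 13 of all 30 subunits were higher and 17 lower. The correlation was then 0.23, and 2 of the 8 poor in GC were lower. No subunit was called in any of these fits. The part of GC content in the differences between RLN2 and untreated libraries beyond these values was not tested.

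**Figure D5:**
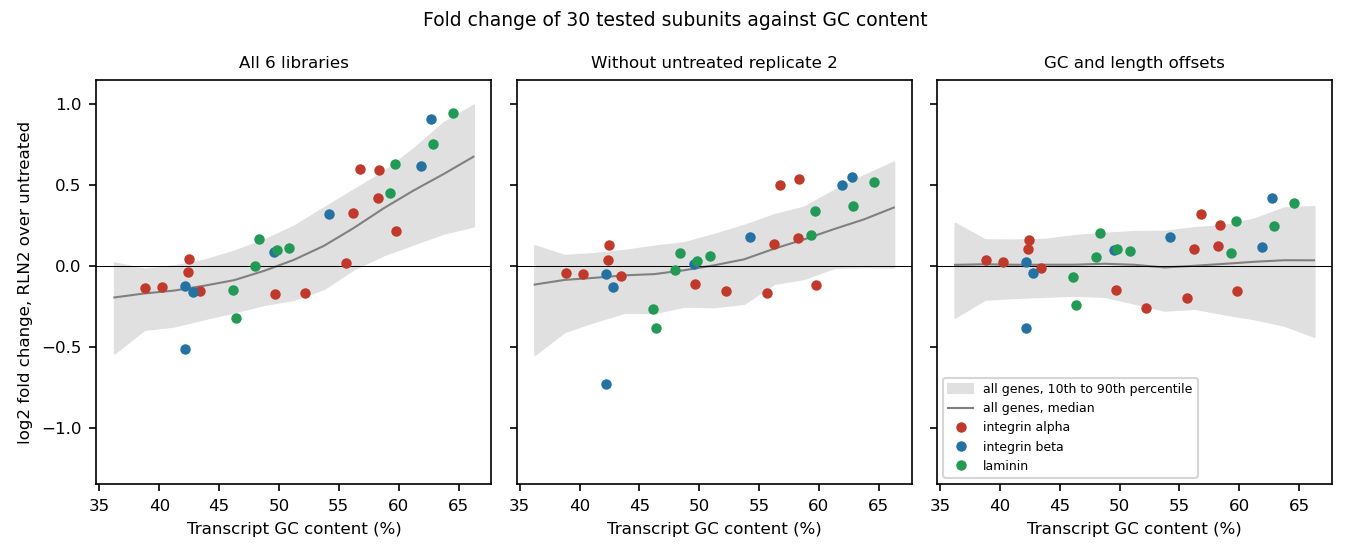
log2 fold change, RLN2 over untreated, against transcript GC content (percent) for the 30 tested subunits in 3 fits; the line and grey band give the median and the 10th to 90th percentile of all tested genes by GC content. The subunits run along the rising line with all 6 libraries (correlation 0.87). With offsets the line of all genes is flat, while the subunits still rise with GC content, more weakly (0.48).

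The share that each subunit took of the summed level of its class was also followed. The summed alpha subunit level was 128 ± 2.17 RPKM in RLN2 libraries and 124 ± 1.92 RPKM in untreated libraries (SD, n = 3 each), and the summed beta level was 119 ± 4.40 and 126 ± 8.38 RPKM. ITGB1 made a smaller share of the beta sum in every RLN2 library than in any untreated one, while ITGB4 made 1.68% to 2.44% in RLN2 libraries and 0.441% to 1.49% in untreated libraries. ITGA3 made 21.0% to 27.0% of the alpha sum in RLN2 libraries and 11.9% to 22.4% in untreated libraries, and these ranges overlapped. Without untreated replicate 2 the lower ends in untreated libraries were 22.1% for ITGA3 and 1.31% for ITGB4.

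The summed laminin beta level was 54.2 ± 6.01 RPKM in RLN2 libraries and 43.2 ± 8.73 RPKM in untreated libraries. LAMB2 made 28.0% to 31.9% of it in RLN2 libraries and 17.9% to 27.7% in untreated libraries, and LAMB1 43.8% to 49.6% in RLN2 libraries and 49.0% to 64.5% in untreated libraries. LAMA1 made 85.9% to 91.3% of the alpha sum in RLN2 libraries and 88.9% to 94.0% in untreated libraries. The leading chain was thus the same in all 6 libraries at each position. Differences in shares were not tested, and the libraries differ along GC content as described above.

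The genes that act with integrins and laminins were read as 4 lists. Of 43 tested activators, adaptors and signalling partners of integrins, 32 were higher and 11 lower in RLN2 libraries (median log2 fold change 0.17), and 0 passed the adjusted p of edgeR. ACTN4, an actin cross-linker of adhesions, had 355, 456 and 399 CPM in RLN2 libraries, against 175, 292 and 341 CPM in untreated libraries, with a log2 fold change of 0.58 ± 0.22 (edgeR adjusted p = 0.408). TNS2, a tensin that binds integrin tails, had 0.64 ± 0.26. Without untreated replicate 2 the log2 fold changes were 0.35 for ACTN4 and 0.38 for TNS2, and with offsets 0.23 and 0.17. Of these 43, 4 had an unadjusted p under 0.05, or 9.30%, near the 10.8% of all genes. This number was 0 without RLN2 replicate 2 or RLN2 replicate 3 and 16 without untreated replicate 4. Over all genes it was 492 of 17370, 612 of 16802 and 3602 of 17315 without these libraries in turn.

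Of 26 tested laminin partners in basement membranes, 19 were higher and 7 lower (median 0.37), with 0 called by edgeR. At an unadjusted p under 0.05 there were 4, or 15.4%, against 10.8% of all genes. The 4 became 0 without RLN2 replicate 2 (492 of 17370 over all genes) and 10 without untreated replicate 4 (3602 of 17315). DAG1, which encodes dystroglycan, a laminin receptor outside the integrin family, had 144, 173 and 165 CPM in RLN2 libraries, against 91.4, 125 and 139 CPM in untreated libraries. Its groups did not overlap, and the log2 fold change was 0.44 ± 0.15. NTN1, a secreted netrin related to laminin chains, had 0.73 ± 0.24. They were 0.28 for DAG1 and 0.48 for NTN1 without untreated replicate 2, and with offsets 0.10 and 0.36. DST, a plakin that ties keratin filaments to ITGB4 in hemidesmosomes, had 2146 ± 65.8 CPM in RLN2 libraries and 2347 ± 139 CPM in untreated libraries (SD, n = 3 each), with a log2 fold change of -0.13 ± 0.083.

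Of 27 tested ligands of integrins other than laminins and collagens, 21 were higher and 6 lower (median 0.21), with 0 called by edgeR. At an unadjusted p under 0.05 there were 3, or 11.1%, against 10.8% of all genes. The 3 became 0 without RLN2 replicate 2 or RLN2 replicate 3 and 8 without untreated replicate 4. FN1, which encodes fibronectin, had 918 ± 17.3 CPM in RLN2 libraries and 919 ± 91.5 CPM in untreated libraries, a log2 fold change of -0.0018 ± 0.088 that was -0.08 without untreated replicate 2. MFGE8 and ADAM15, secreted and membrane proteins with an RGD motif, had 0.56 ± 0.21 and 0.64 ± 0.26. They were 0.36 for MFGE8 and 0.35 for ADAM15 without untreated replicate 2, and with offsets 0.29 and 0.15. Of 19 tested tetraspanins and other partners that sit beside integrins in the membrane, 15 were higher and 4 lower (median 0.28), with 0 called by edgeR and 7 at an unadjusted p under 0.05, or 36.8%, against 10.8% of all genes. That number was 0 without RLN2 replicate 2, 1 without RLN2 replicate 3, 3 without untreated replicate 3, 12 without untreated replicate 4, 2 with offsets and 1 with 1 surrogate variable. Over all genes it was 492 of 17370, 612 of 16802, 1244 of 16736 and 3602 of 17315 without these libraries in turn. With offsets and with the surrogate variable it was 1767 and 1441 of 16740. CD63 had 285, 287 and 279 CPM in RLN2 libraries, against 244, 255 and 263 CPM in untreated libraries, values that did not overlap, with a log2 fold change of 0.16 ± 0.060 that was 0.06 with offsets. CD82, a tetraspanin known as a suppressor of metastasis, had 2.34, 2.35 and 1.64 CPM in RLN2 libraries, against 0.540, 1.32 and 1.44 CPM in untreated libraries, with 0.93 ± 0.35 that was 0.58 without untreated replicate 2. CAV1, the main protein of caveolae, had 516 ± 20.5 CPM in RLN2 libraries and 554 ± 27.0 CPM in untreated libraries, with -0.10 ± 0.070, or -0.07 without untreated replicate 2. Like the subunits, these lists were not matched for GC content.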

How the data were processed

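Per the labels' protocols, cells were lysed in TRIzol and libraries of total RNA keep the strand. The authors deposited raw read counts per gene for each library in unstranded, forward and reverse columns, made with STAR on hg38 per the submitters' processing notes. STAR's version and the annotation release were not given in the sources used here. Of these columns, reverse held 17.8 to 19.8 times the reads of the forward one and was used, and the authors' merged count table held the same counts for all 38 subunits. Lines that name no gene stayed out of library sizes (unmapped 6.73% to 17.4%, multimapping 5.31% to 27.0%, no feature 17.5% to 32.0%, ambiguous 2.36% to 4.18% of reads).

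From these counts, genes passing edgeR's default filter were scaled by TMM and tested with edgeR 4.0.16 (two-sided quasi-likelihood F test; threshold 0.05 on p adjusted over all genes by Benjamini-Hochberg) in R 4.3.3, with treatment as the only term. Standard errors were computed from the fold change and its F statistic. Depth and replicates gave the subunits a median standard error of 0.17 (log2). Exon lengths, GC content, positions and sequences came from GENCODE 29 on GRCh38, which matched 57429 of 58037 IDs. The test was checked on simulated data in which genes were drawn independently and libraries carried no GC trend. That check therefore does not cover such trends. Alternatives were DESeq2 1.42.0, limma 3.58.1 voom, other scalings and filters, the other count columns, leaving out libraries, the replicate block, 1 surrogate variable (sva 3.50.0) and offsets on GC content and length (natural splines, 4 degrees of freedom each).

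Genes named are the 6 alpha, 4 beta and 6 laminin subunits of highest level, and the 6 with the smallest p in each direction at a mean of 1 CPM or more. Others are named as picked later or given to account for every subunit, and each list is shown by its 2 smallest p and its most abundant genes. Results for 1 subunit and 1 listed gene that this rule names are not reported here, but both stay in the fit and the counts. Members and lists were chosen with earlier results of these data known. All pairs of libraries differed by more than sampling noise (chi-square per degree of freedom of the closest pair, RLN2 replicate 1 and untreated replicate 4, 2.65), so each counted as 1 sample. Python 3.11.15, pandas 2.3.3 and matplotlib 3.10.9 were used.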

Additional observations from a re-analysis of the deposited data

Results flagged for a closer look

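Reads on the strand opposite to the counted one were higher in every RLN2 library than in any untreated library at 2 of the 38 subunits. These reads lie outside the counts used for the comparisons. At LAMA5 the opposite strand averaged 10.7 CPM in RLN2 libraries (7.90 to 13.1), above the 1.08 to 6.34 CPM of untreated libraries. The 1.08 CPM was that of untreated replicate 2, and ADRM1 and LAMA5-AS1 are annotated there. At ITGA7 the opposite strand averaged 1.53 CPM in RLN2 libraries (1.09 to 1.83), above the 0.878 to 0.980 CPM of untreated libraries. METTL7B and BLOC1S1 are annotated there. Opposite-strand reads were not tested, and the share of all genes with such a separation on that strand was not computed. On the counted strand, 10.8% of all tested genes were higher in RLN2 libraries without overlap.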

How the results depend on the processing

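The count of subunits called at an adjusted p under 0.05 was 0 under every alternative other than the replicate block with offsets named below. In the main fit it was also 0 at an adjusted p under 0.10, a threshold not applied to the alternatives. Without a filter on low counts the smallest adjusted p of a subunit was 0.0551 by edgeR. That fit had 11 subunits at an unadjusted p under 0.05, and the replicate block had 9. Over all genes these numbers were 3607 of 32407 and 2696 of 16740. The deviations of same-numbered libraries had correlations of -0.30 for number 2 and 0.11 for number 3 over 16740 genes. Libraries of unlike number ran from -0.36 to 0.43, so no pairing by replicate number was seen. Both libraries numbered 2 stand apart, so this check cannot exclude pairing. A replicate block with these numbers leaves 1 residual degree of freedom, and it called 0 subunits and 1 gene in all. Its RLN2 effect rests on numbers 2 and 3 alone, because RLN2 replicate 1 and untreated replicate 4 have no counterpart. The same holds for that block with offsets. Chosen after seeing the data, the replicate block with GC content and length offsets called 3 subunits by edgeR: LAMB2 (0.43, adjusted p = 0.00164), LAMA5 (0.73, 0.0115) and ITGB4 (0.54, 0.0475). It called 558 of all genes, and 2 adaptors, 7 laminin partners, 1 ligand and 2 lateral partners. Without a filter on low counts 120 genes were called, with 2 adaptors, 1 laminin partner and 2 lateral partners. Of all genes, 7 were called with 1 surrogate variable, 3 without both libraries numbered 2, 1 without untreated replicate 2 with offsets (also chosen after seeing the data), and 0 to 3 when each library was left out in turn, the 3 being without untreated replicate 2. ACTN4 passed without the filter (adjusted p = 0.0410) and with the replicate block and offsets (0.0332). The cause of these differences was not tested.

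Leaving out each library in turn, the median log2 fold change ran from -0.045 to 0.10 for alpha subunits, 0.01 to 0.22 for beta subunits and 0.07 to 0.19 for laminins. The beta median was 0.32 with a filter of 1 CPM, and the laminin median -0.049 with 1 surrogate variable. With the length of the longest transcript, ITGAV made 29.7% of the alpha sum (35.0% in the main analysis).

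Among the genes named by rule or picked later, signs of log2 fold changes (at 2 decimals) turned as follows. The signs of ITGA1, ITGA2, ITGA2B, ITGA9, ITGAM, ITGB3 and LAMA3, which lie outside that rule, also turned under at least 1 alternative. With 1 surrogate variable, they were -0.065 for ITGA3, -0.061 for LAMB3, -0.0092 for ITGA5, -0.077 for LAMA5, -0.10 for LAMC3, 0.024 for ITGA4, 0.095 for ITGA6, 0.036 for ITGAV and 0.011 for ITGB1. With offsets, they were 0.10 for ITGA6, 0.038 for ITGAV and 0.027 for ITGB1. With the replicate block and offsets, they were 0.10 for ITGA6, 0.027 for ITGAV, 0.022 for ITGB1 and -0.11 for ITGB2. Without untreated replicate 2 and with offsets, they were 0.023 for ITGA4, 0.12 for ITGA6, 0.055 for ITGAV and 0.046 for ITGB1. ITGA6 was also 0.033 without untreated replicate 2, 0.011 without RLN2 replicate 2 (range when each library was left out in turn, -0.087 to 0.033) and 0.091 without both libraries numbered 2. LAMC1, at -0.0033, lay on either side of 0. None of these passed the threshold, and the cause was not tested. With 3 libraries a group, the median standard error of 0.17 limits what can be seen: log2 fold changes near 0.1 are within the error of most subunits.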

Other observations

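At 6 subunits the opposite strand held more reads than the counted strand over the 6 libraries together. ITGA11, a collagen receptor subunit, had 367 opposite-strand reads and 14 counted reads, and no antisense gene is annotated there in GENCODE 29. ITGAD, a leukocyte subunit, had 305 and 3, also with no annotated antisense gene. ITGB7 had 287 and 2, where ZNF740 is annotated on the other strand, and ITGA9 had 69 and 57, where ITGA9-AS1 is annotated. ITGAL had 10 and 6, and LAMA4 had 7 and 6.

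The fibroblast markers summed to 20.03 to 20.8 CPM in RLN2 libraries and 11.7 to 19.3 CPM in untreated libraries. PDGFRB was the highest of them, averaging 16.9 CPM in RLN2 libraries and 13.4 CPM in untreated libraries. ACTA2 and LUM averaged 1.37 and 1.34 CPM over the 6 libraries, and DCN and FAP had 0 reads. The mesothelial markers summed to 108 to 121 CPM in RLN2 libraries and 84.0 to 106 CPM in untreated libraries. MSLN and WT1 are also among the ovarian carcinoma markers, and DES among those of muscle. MSLN averaged 37.5 and 20.9 CPM in the RLN2 and untreated groups, and BNC1 59.6 and 60.7 CPM. The platelet markers summed to 0.0871 to 0.273 CPM in RLN2 libraries and 0.180 to 0.404 CPM in untreated libraries, with 4 of 6 at 0 reads. The endothelial markers summed to 6.90 to 7.75 CPM in RLN2 libraries and 6.85 to 7.90 CPM in untreated libraries. Markers of Schwann cells and muscle summed to 2.18 to 2.84 CPM in RLN2 libraries and 1.40 to 3.06 CPM in untreated libraries.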
